A study of Mus musculus with 2 samples.

Results

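The Bcl2 family decides whether a cell keeps its mitochondria intact or commits to apoptosis, and 10 of its genes were followed through nuclei of the mouse lung at E18, shortly before birth. The members were Bcl2, Bcl2l1, Bcl2l11, Mcl1, Bcl2a1b, Bcl2l2, Bax, Bak1, Bid and Bmf, that is, 10 of the 32285 genes in the count tables. They were chosen by name, with results of these data already known, among them the ratio of Bcl2 between the libraries in group 2 innate lymphoid cells (ILC2s). That ratio is therefore given as a description.

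Nuclei came from wild-type fetuses of mothers that had been sensitized and challenged through the airway during pregnancy with ovalbumin (OVA, 8 fetuses pooled) or handled alike with phosphate-buffered saline (PBS, 9 fetuses pooled). Alum was part of the sensitization in both groups, and the OVA mothers stood for maternal asthma. Sorted ILC2s (CD45+ Lin- ST2+) were mixed with other CD45+ cells and with EpCAM+ epithelium, and RNA and open chromatin were read from the same nuclei. The proportions of cell types were therefore set by the sort. Each group was 1 library from 1 pregnant dam, so the values compare 2 libraries and no test between conditions was possible.

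The PBS library held 8019 barcodes with 11473351 gene counts (unique molecular identifiers, UMIs), and the OVA library held 5960 barcodes with 13774959. After filters 4279 and 4996 nuclei remained, with a median of 1115 and 1821 UMIs and with 37.0% and 27.7% of UMIs from mitochondrial genes. The libraries shared 54 barcodes, of which 28 were kept in both. A nucleus was given a cell type when it showed at least 3 markers of that type and at least 2 more than of any other. The 7 types with at least 50 nuclei in each library were ILC2 (350 nuclei in PBS and 514 in OVA), macrophage (110 and 218), alveolar type 2 (AT2; 446 and 310), alveolar type 1 (AT1; 174 and 270), fibroblast (833 and 1192), myofibroblast or smooth muscle (56 and 65) and pericyte (76 and 107). In each of these types 10 to 12 of its 12 markers were highest in that type, and none was at 0. The macrophage gate took few nuclei from the large macrophage clusters (63 gated of the 763 PBS and 311 OVA nuclei in one of them), so its values describe only the nuclei that showed several of its markers. Fibroblasts were the largest gated type in both libraries, although the sort was for CD45+ and EpCAM+ cells. Levels are in UMIs per 1000000 nuclear-gene UMIs (CPM), a denominator without mitochondrial genes, and all intervals are 95% intervals that cover counting error only.

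The family has 3 arms. The anti-apoptotic proteins (BCL2, BCL-XL from Bcl2l1, MCL1, A1 from Bcl2a1b and BCL-W from Bcl2l2) hold their relatives in check at the outer mitochondrial membrane. BH3-only proteins (BIM from Bcl2l11, BID and BMF) sense loss of growth factors, protease cleavage or detachment and block the guardians, and BAX and BAK then form the pores that release cytochrome c. In lymphocytes, IL-7 and related cytokines keep BCL2 high, and BIM is the main killer of lymphocytes deprived of cytokine.

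The promoters of Bcl2, Bcl2l11 and Bcl2a1b are shown because their RNA was highest in different nuclei: Bcl2l11 in ILC2 nuclei in both libraries, Bcl2 in ILC2 nuclei in OVA (level with myofibroblasts in PBS) and Bcl2a1b in macrophages. Each begins 250 bases before the RefSeq start and stops within 30 bases of the earlier annotated start (mouse build GRCm38.p6, 5′ to 3′ on the strand of the gene). Capitals mark matches, on either strand, to 6 short motifs searched in the 300-base window from which each was taken: GATAA (GATA factors), TTCNNNGAA (STAT), TGTGGT (RUNX), TGANTCA (AP-1), GAGGAA (ETS factors such as PU.1) and GGGCGG (the GC box of SP factors).
Bcl2, minus strand of chr1:106714261-106714540: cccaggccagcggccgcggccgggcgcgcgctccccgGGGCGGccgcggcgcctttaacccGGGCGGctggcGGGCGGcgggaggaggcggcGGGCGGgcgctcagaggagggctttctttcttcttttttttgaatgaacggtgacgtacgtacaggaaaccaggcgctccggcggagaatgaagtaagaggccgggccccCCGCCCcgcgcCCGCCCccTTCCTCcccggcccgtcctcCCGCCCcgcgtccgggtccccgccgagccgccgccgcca
Bcl2l11, plus strand of chr2:128125788-128126067: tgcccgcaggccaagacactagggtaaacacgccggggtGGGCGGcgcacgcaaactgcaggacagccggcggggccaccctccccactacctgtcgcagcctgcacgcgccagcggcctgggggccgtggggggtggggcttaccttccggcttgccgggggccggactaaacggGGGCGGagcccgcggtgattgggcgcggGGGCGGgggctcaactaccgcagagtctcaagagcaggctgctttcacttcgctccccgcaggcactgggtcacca
Bcl2a1b, plus strand of chr9:89199023-89199238: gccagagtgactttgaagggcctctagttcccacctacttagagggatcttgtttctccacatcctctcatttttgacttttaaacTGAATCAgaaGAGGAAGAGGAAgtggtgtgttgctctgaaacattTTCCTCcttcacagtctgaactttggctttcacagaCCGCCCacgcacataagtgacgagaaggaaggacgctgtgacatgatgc

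The Bcl2 window was a CpG island of 76.0% GC with 44 CpG dinucleotides, against a median of 52.7% GC and 7 CpGs over 32817 promoters. It held 7 GC boxes, and only 0.628% of all promoters held as many. The Bcl2l11 window was of the same kind, with 71.0% GC, 27 CpGs and 3 GC boxes, a number reached by 10.7% of promoters. Bcl2a1b differed from both. Its window had 46.7% GC, 4 CpGs, 1 AP-1 match and 4 GAGGAA matches, 3 of them in the stretch shown, and 0.125% of promoters held as many GAGGAA matches. No GATAA, STAT or RUNX match was found in the 3 windows, although 25.4%, 8.29% and 16.8% of all promoters held at least 1 of each. AP-1 matches were in 7.81%, GAGGAA matches in 28.3% and GC boxes in 35.6% of promoters. A match or its absence concerns these letters only and says nothing of binding.

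Bcl2, the founding guardian of the family, was an ILC2 and mesenchymal transcript among the 7 described types. The gene (ENSMUSG00000057329) spans 176 kb of chr1:106538178-106714274 on the minus strand of GRCm38. ILC2 nuclei held 401 CPM in the PBS library (85 UMIs, 321 to 496) and 824 CPM in the OVA library (452 UMIs, 750 to 903). Myofibroblast or smooth muscle nuclei came next with 399 CPM (18 UMIs) and 328 CPM (31 UMIs). Fibroblasts held 184 and 169 CPM, and pericytes 66.5 and 124 CPM. This order was the same in both libraries, but fibroblasts and pericytes could not be told apart in OVA (0.44, -0.15 to 1.10). Macrophage, AT2 and AT1 nuclei were close to empty, with 22.9, 21.9 and 15.8 CPM in PBS and 5.43, 14.96 and 7.46 CPM in OVA, each from 2 to 14 UMIs. In the OVA library ILC2 nuclei stood above myofibroblasts by 1.33 on the log2 scale (0.80 to 1.90). In the PBS library the same difference was 0.01 (-0.74 to 0.83), so the first and second place could not be told apart there. Myofibroblasts stood above fibroblasts in both (1.12, 0.33 to 1.82, and 0.96). Set against AT2 nuclei in the PBS library, ILC2 nuclei held 4.19 more on the log2 scale.

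**Figure D1:**
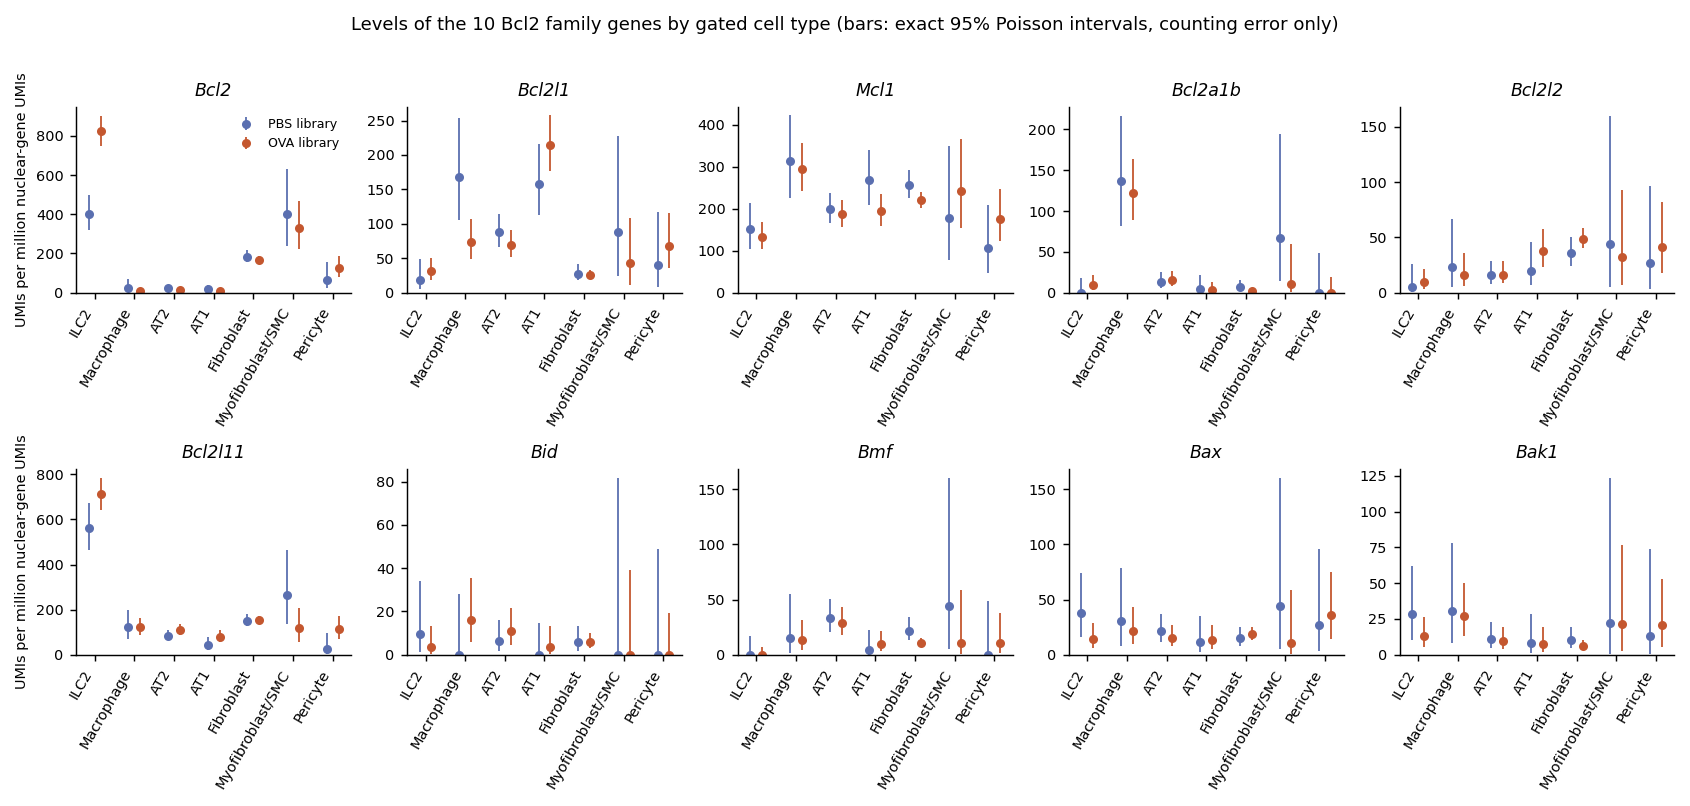
Levels of the 10 genes (y axis, CPM over nuclear-gene UMIs) in the 7 gated types (x axis) of the PBS library (blue) and the OVA library (orange); points are values and bars exact 95% Poisson intervals. Bcl2l11 peaks in ILC2 nuclei in both libraries and Bcl2 in OVA, while in PBS ILC2 and myofibroblast nuclei are level for Bcl2 (401 and 399 CPM). Bcl2a1b is highest in macrophage nuclei, although not told apart from myofibroblasts in PBS. Bcl2l1 is highest in macrophage and AT1 nuclei in PBS and in AT1 nuclei in OVA. Bax, Bak1 and Bid stay below 45 CPM throughout.

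Bcl2l1, whose product BCL-XL does the same task in epithelium and erythroid cells, had close to the opposite pattern. AT1 nuclei held 158 CPM in PBS (40 UMIs) and 214 CPM in OVA (115 UMIs), and AT2 nuclei 87.7 and 69.4 CPM. ILC2 nuclei held 18.9 CPM in PBS from 4 UMIs and 31.0 CPM in OVA from 17 UMIs. AT1 nuclei thus exceeded ILC2 nuclei by 3.07 (1.60 to 5.01) and 2.79 (2.05 to 3.62) on the log2 scale. Macrophage nuclei matched AT1 nuclei in PBS (168 CPM, difference 0.08) but stood 1.55 (0.93 to 2.21) below them in OVA, at 73.3 CPM. Of all UMIs that fell on Bcl2 or Bcl2l1, Bcl2 took 95.5% (88.9 to 98.8) and 96.4% (94.3 to 97.9) in ILC2 nuclei, 87.0% and 87.1% in fibroblasts, and 9.09% and 3.36% in AT1 nuclei. Bcl2 is the longer gene, so these shares rank cell types and do not compare the amounts of the 2 transcripts.

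Mcl1, a short-lived guardian on which most cells depend, was spread over every type. Its level lay between 106 and 313 CPM in PBS and between 133 and 296 CPM in OVA. Macrophages were first in both libraries, with 313 CPM (41 UMIs) and 296 CPM (109 UMIs). ILC2 nuclei were among the lowest, with 151 CPM (32 UMIs) and 133 CPM (73 UMIs), below macrophages by 1.05 (0.35 to 1.76) and 1.15 (0.71 to 1.60) on the log2 scale and below fibroblasts by 0.77 (0.23 to 1.35) and 0.73 (0.37 to 1.10). Of the neighbours in the order of types, fibroblast over AT2 in PBS was the only pair whose interval left out equality.

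Bcl2a1b, an A1 gene induced by NF-κB in myeloid cells, was a macrophage transcript. Macrophage nuclei held 137 CPM in PBS (18 UMIs) and 122 CPM in OVA (45 UMIs). ILC2 nuclei had 0 UMIs in PBS, which allows up to 14.2 CPM, and 5 UMIs or 9.11 CPM in OVA. In OVA macrophages exceeded AT2 nuclei, the next type, by 3.03 on the log2 scale (2.05 to 4.13). In PBS the few myofibroblast nuclei had 3 UMIs, and macrophages could not be told apart from them within counting error (1.05, -0.73 to 3.45). Bcl2a1b has close copies: its coding sequence matched that of Bcl2a1d in 510 and that of Bcl2a1a in 505 of 516 bases, so reads may have been assigned among them with error. The other copies were also found mainly in macrophages, with 11 and 23 UMIs for Bcl2a1d and 6 and 15 for Bcl2a1a. Bcl2l2, the guardian BCL-W, was at 35.4 CPM (31 UMIs) and 48.5 CPM (112 UMIs) in fibroblasts, at 44.3 CPM in PBS myofibroblasts from 2 UMIs and at 41.4 CPM in OVA pericytes, which could not be told apart from fibroblasts. ILC2 nuclei held 1 and 5 Bcl2l2 UMIs, below fibroblasts by 2.91 (0.32 to 8.26) and 2.41 (1.15 to 4.06) on the log2 scale.

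Among the BH3-only genes, Bcl2l11 (ENSMUSG00000027381, chr2:128126038-128162547, plus strand) was the one abundant in ILC2 nuclei. Its level there was 562 CPM in PBS (119 UMIs, 465 to 672) and 711 CPM in OVA (390 UMIs, 642 to 785). Myofibroblasts followed in PBS with 266 CPM (12 UMIs) and fibroblasts in OVA with 156 CPM (361 UMIs). ILC2 nuclei led the second type by 1.08 (0.22 to 2.07) and by 2.19 (1.98 to 2.40) on the log2 scale. The remaining types lay between 26.6 and 151 CPM in PBS and between 80.2 and 122 CPM in OVA. In the OVA library the cell type richest in RNA of the guardian gene Bcl2 was thus also the richest in that of its antagonist BIM. Whether single nuclei held both RNAs was not tested.

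Bid and Bmf were sparse. Bid, the link from death receptors to mitochondria, had at most 5 UMIs in any type in PBS and at most 14 in OVA. Bmf, a sensor of detachment, was not detected in ILC2 nuclei in either library (0 UMIs, which allows up to 14.2 CPM in PBS and 5.47 CPM in OVA). It was present in AT2 nuclei, with 21 UMIs in each library (32.9 and 28.6 CPM), and in fibroblasts, with 19 and 24 UMIs (21.7 and 10.4 CPM). The pore formers were low throughout. ILC2 nuclei held 8 Bax UMIs in each library (37.8 and 14.6 CPM) and 6 and 7 Bak1 UMIs (28.3 and 12.8 CPM). No type exceeded 44.3 CPM for Bax or 30.5 CPM for Bak1, and no pair of types could be told apart for Bax. For Bak1 in OVA, macrophages (27.1 CPM) exceeded fibroblasts (6.06 CPM) by 2.16 (0.83 to 3.44) on the log2 scale, although no neighbours in the order of types could be told apart.

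Divided by the length of the gene, ILC2 nuclei held the most of Mcl1 (34.4 CPM per kb in PBS and 30.3 in OVA), then Bcl2l11 (15.4 and 19.5). Bax held 7.26 and 2.80 CPM per kb and Bcl2, a very long gene, 2.28 and 4.68. This order depends on the divisor. Undivided, Mcl1 (151 and 133 CPM) lay below both Bcl2l11 (562 and 711) and Bcl2 (401 and 824). Whether UMIs rise in proportion to gene length was not tested, so neither scale ranks the amounts of the transcripts. Nuclear counts hold much unspliced RNA, so these values are no measure of protein. Bcl2, Bcl2a1b, Bcl2l2, Bax and Bid overlap another annotated gene on their own strand. Bcl2, Bak1 and Bid overlap genes on the opposite strand. How reads in these overlaps were assigned was not tested, so the counts of these members carry that uncertainty.

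For the background of cell type differences, 3.42% of 4361 genes in the PBS library and 4.5% of 6862 genes in the OVA library were at least 2-fold higher in ILC2 nuclei than in each other described type. Bcl2l11 was among them in both libraries and Bcl2 in the OVA library alone. Of the other 8 members, Bcl2l1 and Mcl1 had enough UMIs in both libraries and Bcl2l2 in OVA, and none of them passed. Bcl2a1b, Bax, Bak1, Bid and Bmf had too few UMIs to be counted in either library.

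Between the libraries, Bcl2 in ILC2 nuclei was 2.05-fold higher in OVA than in PBS, a log2 ratio of 1.04 (0.70 to 1.39). Of the 1475 genes with at least 100 UMIs in ILC2 nuclei, 5.29% were at least 2-fold higher in OVA with an interval that left out equality, and 0.542% were at least 2-fold lower. The median gene was at 0.18, with 64.7% of genes above 0. Bcl2 was the only one of the 3 members with enough UMIs to be counted as higher, and 72 genes had a larger ratio. Since this ratio was known when the genes were chosen, its place among all genes is no evidence. Over all gene UMIs, mitochondrial ones included, the ratio was 1.28, and after centring on the median gene it was 0.86, below 2-fold. ILC2 nuclei of the OVA library were also deeper (median 903 against 490 nuclear-gene UMIs) and had a lower mitochondrial share (30.2% against 40.8%). With each nucleus thinned to 500 UMIs the ratio was 0.90 (0.38 to 1.46). At no more than 20% mitochondrial UMIs it had an interval of -0.02 to 2.89, and the part of nuclear quality in it was not tested.

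Bcl2l11 differed less, with a ratio of 0.34 (0.04 to 0.65), and 529 genes had a larger one. Centred on the median gene it was 0.16 (-0.14 to 0.47). Mcl1 was at -0.18 (-0.80 to 0.46). The other 7 members had too few UMIs in ILC2 nuclei to be counted: Bcl2l1 was at 0.71 (-0.90 to 2.74), Bax at -1.37 (-2.99 to 0.24) and Bak1 at -1.15 (-2.95 to 0.70), each with an interval that spans equality. The share of nuclei with at least 1 Bcl2 UMI was 18.3% in PBS and 41.4% in OVA. After thinning to 500 UMIs it was 17.8% of 169 nuclei (12.3 to 24.4) and 30.3% of 439 nuclei (26.0 to 34.8), with 181 and 75 shallower nuclei left out. In AT2 nuclei, where the gene was nearly silent, the thinned share was 0.277% and 0.699% (median depth 876.5 and 1495 UMIs before thinning), a level read as background. For Bcl2l11 the thinned share in ILC2 nuclei was 17.8% and 25.3%, against 5.82% and 5.24% in AT2 nuclei.

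The larger Bcl2 value of the OVA library was not seen in fibroblast, myofibroblast or AT2 nuclei. The log2 ratio was -0.13 (-0.39 to 0.15) in fibroblasts, and the ILC2 ratio exceeded it by 1.16 (0.74 to 1.59). The ILC2 ratio exceeded that of myofibroblasts by 1.32 (0.42 to 2.22) and that of AT2 nuclei by 1.59 (0.40 to 2.78). For AT1 nuclei the difference was 2.12 (0.10 to 4.15) and for macrophages 3.11 (0.51 to 5.72). AT2, AT1 and macrophage values rest on 2 to 14 Bcl2 UMIs a library, where the normal approximation behind these intervals is rough. Exact intervals of the ratio itself in AT1 nuclei (-3.51 to 1.34) and macrophages (-5.66 to 1.05) hold the ILC2 ratio, so these types were not told apart from ILC2 nuclei. Pericytes had a ratio near that of ILC2 nuclei, 0.90 (-0.52 to 2.65), with a difference of 0.14 (-1.29 to 1.57). Clusters of cells outside these types were sparse. The ratio was 1.46 (-0.63 to 4.63, 2 and 16 UMIs) in the mast cell or basophil cluster. It was 0.66 (-0.54 to 2.09, 7 and 32 UMIs) in a cluster led by Gzma, Ighm and Pax5. Both intervals span equality and hold the ILC2 ratio. The endothelial cluster was at 0.10 (-0.51 to 0.73). For Bcl2l11, only myofibroblasts had a ratio whose difference from that of ILC2 nuclei left out 0 (1.53, 0.32 to 2.75). For Mcl1 no type did.

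**Figure D2:**
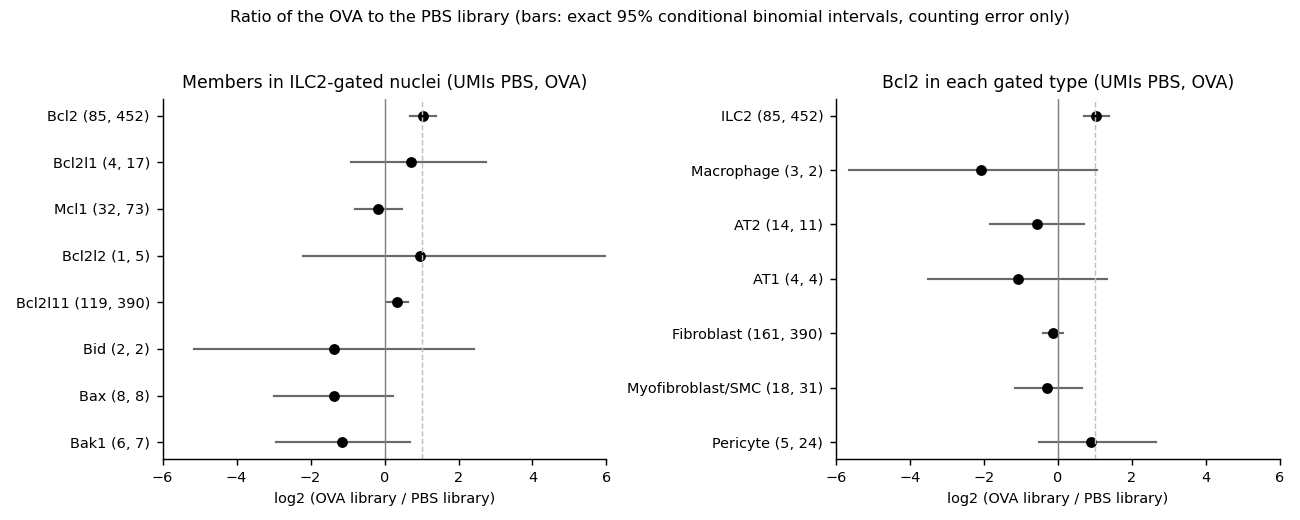
Log2 ratio of the OVA to the PBS library (x axis) for the members in ILC2 nuclei (left) and for Bcl2 in each gated type (right), with UMIs of PBS and OVA in parentheses; bars are exact 95% intervals, drawn up to 6 either way, and the dashed line marks 2-fold. The interval of Bcl2 in ILC2 nuclei lies above 0 (0.70 to 1.39), as does that of Bcl2l11 (0.04 to 0.65), whereas the fibroblast interval for Bcl2 spans 0.

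In the other types few members differed between the libraries. In fibroblasts 1.03% of 4871 genes passed 2-fold in either direction and 4 members had enough UMIs. The corresponding values were 2.11% of 2752 genes and 3 members in AT2 nuclei, 0.82% of 1586 genes and 2 members in AT1 nuclei, and 8.12% of 1096 genes and 1 member in macrophages. No member was counted in any of these types. With fewer UMIs, intervals left out equality for Bcl2l1 in macrophages, lower in OVA (-1.20, -2.06 to -0.31), for Bmf in fibroblasts (-1.06, -1.99 to -0.12), for Mcl1 in AT1 nuclei (-0.47, -0.93 to -0.01) and for Bcl2l11 in pericytes (2.10, 0.07 to 5.23). These 4 and the ILC2 values of Bcl2 and Bcl2l11 were 6 of the 66 combinations of member and type with a UMI. Over all genes, 6.92% of 103748 such combinations had an interval that left out equality. The Bcl2l1 value covers gated macrophages alone. In a macrophage cluster led by Nrg4 and Dmxl2, Bcl2l1 was higher in OVA (17 and 171 UMIs, 0.90, 0.17 to 1.71). In macrophage clusters led by Ear2 (33 and 14 UMIs, -0.22) and by Wfdc17 (10 and 29 UMIs, 0.87) the intervals spanned equality. The macrophage cluster led by C1qa held 1 UMI in each library.

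The pair of BCL2 and its antagonist BIM can be followed without any denominator. In ILC2 nuclei Bcl2 took 41.7% (34.8 to 48.8) of the UMIs of the pair in PBS and 53.7% (50.2 to 57.1) in OVA, and the log2 ratio of Bcl2 exceeded that of Bcl2l11 by 0.70 (0.25 to 1.14). Thinned nuclei did not show this shift, with 46.8% (35.3 to 58.5) and 48.2% (43.0 to 53.5). The Bcl2 share was 54.9% and 51.9% in fibroblasts and 60% (40.6 to 77.3) and 73.8% in myofibroblasts. It was lower in macrophage, AT2 and AT1 nuclei, with 15.8%, 20.6% and 26.7% in PBS and 4.26%, 11.8% and 8.51% in OVA. Bcl2 is the longer gene, so these shares rank types and do not compare the amounts of the 2 transcripts. Per kilobase, fibroblasts held 1.05 and 0.958 CPM of Bcl2 against 4.13 and 4.28 of Bcl2l11. Over all 10 members, Bcl2 and Bcl2l11 together were the bulk of the 257 and 959 member UMIs in ILC2 nuclei, with 33.1% and 47.1% for Bcl2 and 46.3% and 40.7% for Bcl2l11. In AT2 nuclei the largest share was that of Mcl1 (40.3% and 39.0%).

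**Figure D3:**
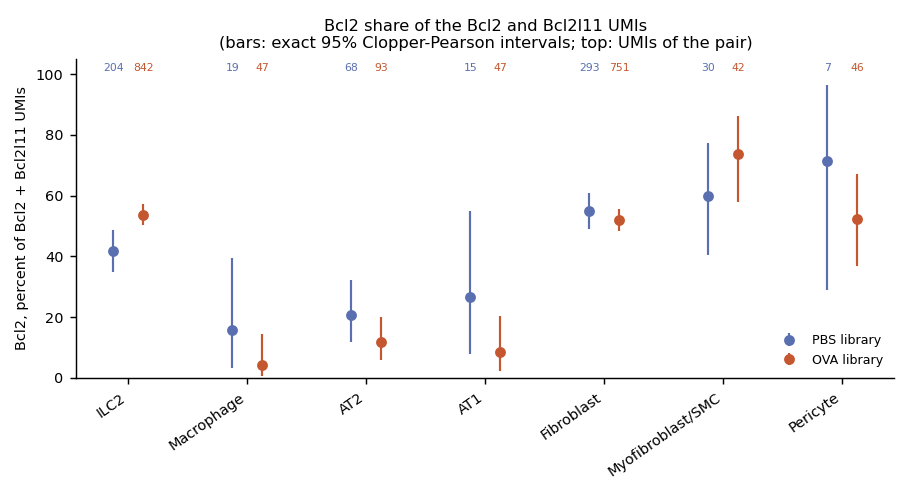
Share of Bcl2 in the UMIs of Bcl2 and Bcl2l11 (y axis, percent) by gated type (x axis) in the PBS (blue) and OVA (orange) libraries, with exact 95% Clopper-Pearson intervals and the UMIs of the pair at the top. ILC2 nuclei sit at 41.7% and 53.7%, fibroblasts near 50%, and macrophage, AT2 and AT1 nuclei below 30%.

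Clusters drawn without the gates placed the members in cells too few to be gated. The ILC2 cluster, led by Ikzf3, Calca and Icos, held most of the ILC2-gated nuclei (325 of 350 in PBS and 470 of 514 in OVA). Its levels were 449 CPM in PBS and 884 in OVA for Bcl2, and 614 and 685 for Bcl2l11. The log2 ratio between libraries there was 0.98 (0.64 to 1.33) for Bcl2. For Bcl2l11 it was 0.16 (-0.15 to 0.47), which spans equality, unlike the gated interval. A small cluster led by Gzma, Ighm and Pax5, a mixture of lymphoid genes, held the highest Bcl2l11 level among the lymphoid clusters in OVA, 1081 CPM from 69 UMIs, with 452 CPM from 10 UMIs in PBS. ILC2 gating took 3 PBS and 22 OVA nuclei from that cluster, and 3 PBS and 16 OVA nuclei from the mast cell or basophil cluster. Markers of other cells were also found in ILC2-gated nuclei: the summed mast cell or basophil markers stood at 680 and 1257 CPM (9 and 10 of 11 detected), AT2 markers at 1100 and 558 CPM, and T cell markers at 448 and 426 CPM, against 22075 and 28246 CPM for the ILC2 markers. Fibroblast markers stood at 727 and 423 CPM (10 and 12 of 12 detected) and myofibroblast or smooth muscle markers at 439 and 129 CPM (10 of 12 in each), both lower in OVA. Endothelial markers stood at 241 and 406 CPM (7 and 11 of 12 detected), higher in OVA. The part of cells with any of these markers in the Bcl2 values was not tested. Bcl2a1b was highest in a macrophage cluster led by Wfdc17, Inhba and Spp1, at 357 CPM (56 UMIs) and 274 CPM (68 UMIs). A mixed cluster led by Nrxn3, Csmd1 and Zfp536, in which 171 of 304 gated nuclei were fibroblasts, held 348 and 327 CPM of Bcl2 from 148 and 186 UMIs. The endothelial cluster, of 24 PBS and 34 OVA nuclei, held 36 and 64 Bcl2 UMIs. Endothelial-gated nuclei had a median of 5618 and 1347.5 nuclear-gene UMIs. These clusters and genes were picked after their values were seen.

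The genes whose levels most resembled those of a member were taken from 5809 genes over 14 points, the 7 types in 2 libraries, which share libraries and depth. For Bcl2 they were Ttc28 and Hlf (Pearson r 0.92 each), Gabbr1 and Pde10a (0.91 each) and Csgalnact1 (0.90). For Bcl2l11 they were Arl5b and Rcc2 (0.93 each) and Spty2d1 (0.91), for Mcl1 Svil (0.86), Riok3 (0.84) and Ube2l3 (0.83), and for Bcl2a1b R3hcc1l, Tfec and A930007I19Rik (0.94 each). Between members, Bcl2 had r 0.70 with Bcl2l11 and -0.71 with Bcl2l1 over the same points.

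Of the 18 survival cytokine receptor and signalling genes, 10 had at least 100 UMIs in ILC2 nuclei and none passed 2-fold between the libraries in either direction. Their median ratio was 0.32 against 0.18 over all genes, and the intervals of 2, Kit and Foxo1, lay above 0. Il7r, the IL-7 receptor chain, was at 1463 and 1360 CPM (ratio -0.11, -0.30 to 0.09), Kit, the stem cell factor receptor, at 1223 and 1434 CPM (0.23, 0.03 to 0.44), and Il2ra at 774 and 900 CPM (0.22, -0.04 to 0.48). Foxo1, a regulator of Il7r and Bcl2l11 named here for its value, had the largest ratio of the list, 0.72 (0.09 to 1.40), from 123 and 202 CPM. Downstream of the mitochondria, 3 of 12 apoptosome, caspase and IAP genes had enough UMIs, and none passed 2-fold. Apaf1, the scaffold of the apoptosome, was at 345 and 479 CPM (0.48, 0.10 to 0.87), whereas the IAP genes Birc3 (453 and 490 CPM, 0.11) and Birc6 (718 and 716 CPM, 0.00) were level. None of 13 further Bcl2 family genes and none of 9 death receptor genes reached 100 UMIs. The most abundant of the former was Bcl2l13, with 12 and 41 UMIs, then Bcl2l12 (6 and 6) and Bcl2l15 (1 and 9). The most abundant death receptor genes were Ripk1 (29 and 50 UMIs), Casp8 (12 and 50) and Tnfrsf10b (6 and 26).

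Chromatin accessibility is a readout that the choice of members did not use. Transposition counts were summed over peaks found in both libraries that lie in a gene or within 10 kb of it, and scaled to 1000000 counts in all such shared peaks of the type (scaled counts). Around Bcl2 12 peaks were summed. ILC2 nuclei had 117 scaled counts in PBS (300 raw counts) and 110 in OVA (427 raw counts), a log2 ratio of -0.09 (-0.31 to 0.13). The higher Bcl2 RNA of the OVA library thus had no counterpart in the summed accessibility of the gene. Between types the accessibility of Bcl2 separated the same groups as its RNA in part. ILC2 nuclei exceeded AT2 nuclei by 1.06 (0.82 to 1.30) and 1.13 (0.86 to 1.41) on the log2 scale, AT1 nuclei by 1.54 and 1.09, and macrophages by 0.86 (0.47 to 1.27) and 0.62 (0.35 to 0.90). Fibroblasts, at 118 and 127 scaled counts, were as accessible as ILC2 nuclei or more, with differences of -0.02 (-0.22 to 0.19) and -0.21 (-0.38 to -0.05), although they held less Bcl2 RNA.

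**Figure D4:**
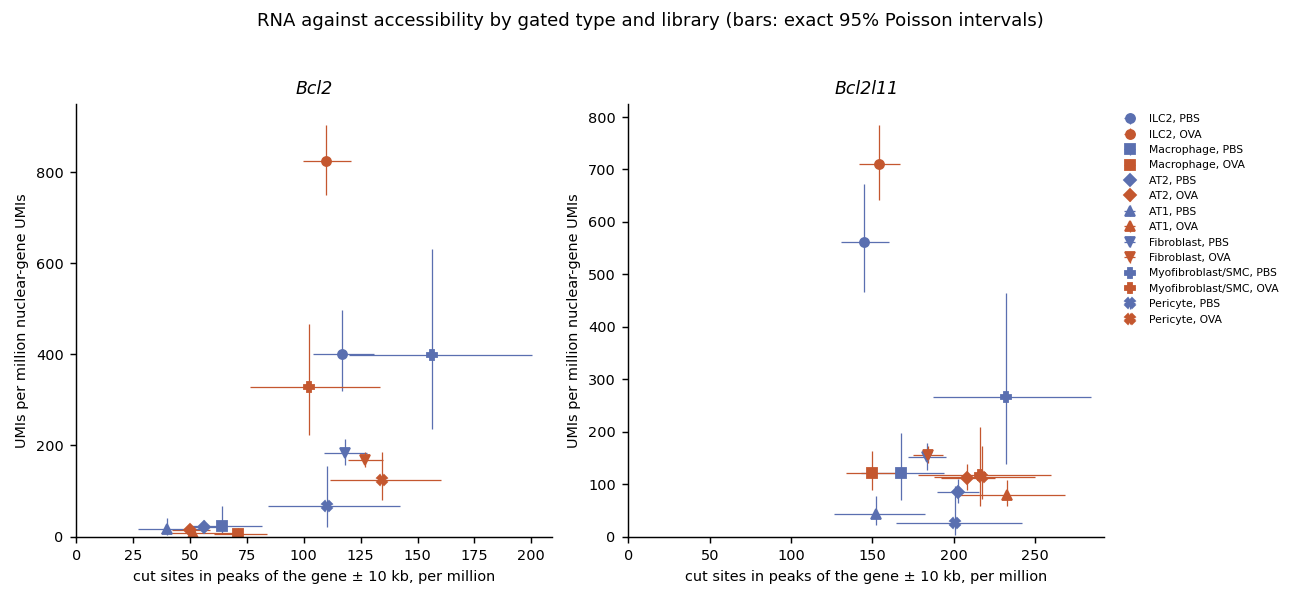
RNA level (CPM) against accessibility (scaled transposition counts, gene and 10 kb either side) of Bcl2 (left) and Bcl2l11 (right); each symbol is a gated type in the PBS (blue) or OVA (orange) library. For Bcl2 the ILC2 points combine the top RNA values with accessibility near that of fibroblasts (117 and 110 against 118 and 127 scaled counts), and for Bcl2l11 they have the top RNA and among the lowest accessibility (145 and 154 scaled counts).

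The 12 Bcl2 peaks did not vary together. The peak over the start, chr1:106713878-106714784, which contains the whole promoter window shown above, had 70.1 scaled counts in ILC2 nuclei of PBS and 54.2 in OVA, a ratio of -0.37 (-0.66 to -0.08). The same peak had 17.5 and 19.5 in macrophages, 44.0 and 40.3 in AT2 nuclei and 53.8 and 56.8 in fibroblasts. The GC-rich promoter was therefore open to some degree also in AT2 nuclei, where almost no Bcl2 RNA was counted. The 11 peaks inside the gene separated ILC2 from AT2 nuclei further, with 46.7 and 55.5 scaled counts against 12.2 and 9.59, a difference of 1.94 (1.48 to 2.41) and 2.53 (1.97 to 3.14). Macrophages, in turn, had as much signal inside the gene as ILC2 nuclei (46.7 and 51.8 scaled counts, differences 0.00 and 0.10) while their start peak was lower by 2.00 (1.30 to 2.79) and 1.48 (0.99 to 2.00).

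Single peaks inside Bcl2 leaned to different cells. By raw counts summed over both libraries, the strongest in ILC2 nuclei after the start peak were chr1:106712093-106712925, 1.77 kb into the gene, with 12.5 and 10.8 scaled counts, and chr1:106612250-106613176, 102 kb into the gene, with 7.79 and 11.8. At the second of these AT2 nuclei had 0.405 and 0.661 and fibroblasts 1.16 and 1.06 scaled counts, while macrophages had 5.84 (6 raw counts) in PBS and 0 in OVA. ILC2 nuclei thus exceeded fibroblasts there by 2.75 (1.38 to 4.35) and 3.47 (2.42 to 4.69) on the log2 scale, but could not be told apart from macrophages in PBS (0.42, -0.95 to 2.02). Other peaks were picked after their values were seen. A peak 51.1 kb into the gene leaned to ILC2 nuclei (13 and 22 raw counts, 5.06 and 5.65 scaled counts, against at most 0.811 in any other type), and ILC2 nuclei exceeded fibroblasts there by 4.58 (2.55 to 7.71) in OVA. A peak 84.4 kb in leaned to fibroblasts (21.1 and 23.9 scaled counts) and myofibroblasts (22.7 and 15.4, from 9 and 8 raw counts), against 1.56 and 2.05 in ILC2 nuclei, and one 86.9 kb in leaned to macrophages (25.3 and 25.2 against 3.11 and 6.68). Of the 11 inside peaks, the interval of the ILC2 over fibroblast ratio lay above 0 at 4 in PBS and 5 in OVA and below 0 at 4 in each. Not 1 of the 11 had an interval of the OVA over PBS ratio in ILC2 nuclei that left out 0.

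**Figure D5:**
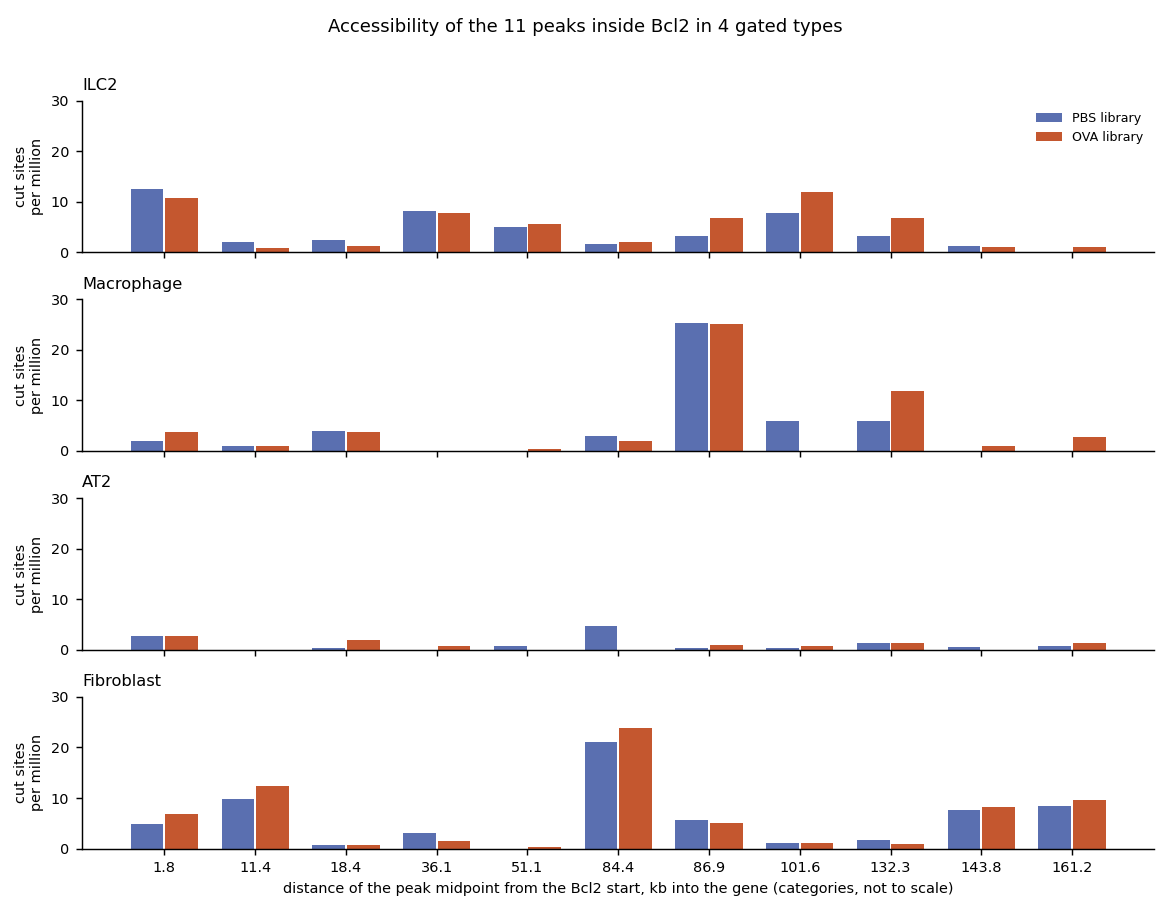
Scaled transposition counts (y axis) at the 11 peaks inside Bcl2, ordered by their distance from the start in kb (x axis, categories not to scale), in ILC2, macrophage, AT2 and fibroblast nuclei of the PBS (blue) and OVA (orange) libraries. Of the 4 types plotted, ILC2 nuclei lead at the peaks 1.77, 36.1, 51.1 and 102 kb into the gene. At 102 kb they could not be told apart from macrophages in PBS. Fibroblasts lead at 84.4 kb (21.1 and 23.9) and macrophages at 86.9 kb (25.3 and 25.2).

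For Bcl2l11 RNA and accessibility parted. ILC2 nuclei had the highest RNA of the 7 types but 145 and 154 scaled counts over 8 peaks, below AT2 nuclei (202 and 208) by 0.48 (0.31 to 0.66) and 0.44 (0.27 to 0.60) on the log2 scale and below fibroblasts (183 and 184) by 0.34 and 0.25. The start peak, chr2:128125436-128126357, had 61.9 and 71.1 scaled counts in ILC2 nuclei. Bmf went the other way. Its RNA was not detected in ILC2 nuclei, and its 13 peaks were lower there than in any other type in both libraries (91.1 and 63.7 scaled counts, against 191 and 182 in AT2 nuclei), although the interval against AT1 nuclei in PBS spanned equality (-0.62 to 0.13), with a difference from AT2 nuclei of -1.06 (-1.28 to -0.86) and -1.51 (-1.73 to -1.29). Bmf was also the member whose accessibility in ILC2 nuclei differed most between the libraries, lower in OVA by 0.52 on the log2 scale (0.25 to 0.78).

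For Mcl1 both readouts put macrophages first and ILC2 nuclei low: 9 peaks held 234 and 212 scaled counts in macrophages and 125 and 121 in ILC2 nuclei. Bcl2l1 had 201 and 190 scaled counts over 16 peaks in ILC2 nuclei. In OVA these were below AT2 nuclei (226 scaled counts) by 0.25 (0.09 to 0.40) and below AT1 nuclei (235) by 0.31 (0.07 to 0.54) on the log2 scale. In PBS they could not be told apart from AT2 (215) or AT1 nuclei (222). Bcl2a1b had weak peaks everywhere. Its start peak, chr9:89198769-89199829, had 3.89 and 5.70 scaled counts in macrophages (4 and 12 counts) and 1.56 and 1.54 in ILC2 nuclei (4 and 6 counts). AT2 nuclei were near macrophages at this peak, with 4.26 and 5.29 (21 and 16 counts). The 8 peaks in and around the gene held more in AT2 nuclei (32.6 and 31.8) than in macrophages (25.3 and 20.9). As with its RNA, reads that fit several A1 copies could have been lost or moved there.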

How the data were processed

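Nuclei of 1 PBS and 1 OVA library, gestation day 18, were measured by joint single-nucleus RNA and ATAC sequencing. The authors deposited filtered matrices of raw counts made with Cell Ranger ARC 2.0.1 on mm10 (GRCm38): UMI counts per gene and transposition counts per peak, with peaks called separately in each library. Unspliced reads enter such counts, so long genes gain UMIs from introns. Of the peaks, 75.9% (PBS) and 85.0% (OVA) overlapped one of the other library, and these were compared.

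Nuclei needed 200 or more genes and a mitochondrial share of 60% or less, and 293 and 250 calls from simulated doublets were removed. Types were gated on fixed marker lists. UMIs were summed per library and type, divided by nuclear-gene UMIs and compared by ratios with exact conditional binomial intervals. Levels carry exact Poisson and shares exact Clopper-Pearson intervals. Differences of ratios carry intervals from the normal approximation to log counts. A gene counted as different needed at least 100 UMIs, a 2-fold ratio and an interval without equality. With 1 library a group there is no test, and the replicate error is unknown. Each limit for 0 UMIs stands for 3 UMIs.

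The members and gene lists were chosen with earlier results of these data known. Named were the 10 members, the 3 genes of each list with the most UMIs in ILC2 nuclei and any past 2-fold, the genes most like a member by Pearson r of log2(CPM + 10) among genes with at least 200 UMIs, the 3 Bcl2 peaks with most ILC2 counts and the start peak of other members. Clusters came from Leiden (leidenalg 0.10.2) on 3000 variable genes. Promoters are RefSeq windows (GRCm38.p6, all 10 members matched). The ratio step was checked on simulated data. Python 3.11.15, numpy 2.4.6, scipy 1.17.1, pandas 2.3.3, scikit-learn 1.9.0 and matplotlib 3.10.9 were used. Alternatives covered the denominator, depth, filters, gate, clusters, scaling and peaks.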

Additional observations from a re-analysis of the deposited data

How the results depend on the processing

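The Bcl2 ratio between libraries in ILC2 nuclei kept its direction in all 12 alternatives, from 0.86 to 1.28 on the log2 scale, and the ILC2 lead over the next type in OVA in all 9 (1.14 to 1.503). The Bcl2 ratio was below 2-fold when centred on the median gene (0.86), thinned, averaged over nuclei (0.90 each), drawn from clusters (0.95) or without Gm42418 and AY036118 (0.98). With at most 20% mitochondrial UMIs, few PBS nuclei remained: the accessibility of Bcl2 in ILC2 over macrophage nuclei in PBS changed sign (-0.62, -2.78 to 2.58), the Bcl2 level over the next type in PBS was -1.19, the Bcl2 share of the pair in OVA was 57.5%, and Mcl1 was at -1.10. Thinning gave 48.2% for that share and 0.82 for the Bcl2l11 ratio, which was 0.65 with the filter on gene UMIs and accessibility counts. Over its 12 alternatives the Bcl2l11 ratio ran from 0.13 to 0.82. The cause of these shifts was not tested. The Bcl2 accessibility ratio in ILC2 nuclei was -0.52 over all peaks of each library and -0.34 within 2 kb of the start. In ILC2 over macrophage nuclei it was 1.27 over all peaks and 0.21 with a gate of at least 4 markers in PBS, and 2.09 (PBS) and 1.48 (OVA) within 2 kb of the start.

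The 78 genes at least 2-fold higher in OVA became 146 over all gene UMIs, 41 with at most 20% mitochondrial UMIs, 44 thinned, 173 with at least 30 UMIs, 222 with no minimum and 45 centred. The 8 lower genes became 3 over all gene UMIs, 13 without Gm42418 and AY036118, 2 with at most 20% mitochondrial UMIs, 17 with doublet calls kept, 5 with at least 4 markers, 2 thinned, 120 with at least 30 UMIs, 488 with no minimum and 22 centred. Gating by cluster gave no level over the next type, since no cluster was of myofibroblast type. Alternatives that take gated nuclei only within clusters of their type, or count cut sites in pairs, were added after seeing the data. No paired analysis was possible because the 2 libraries are the whole of both groups. Depth limits Bax, Bak1, Bid, Bmf, Bcl2a1b and Bcl2l2, which had under 10 UMIs per library in ILC2 nuclei, and Bcl2l1, with 4 in PBS.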
